A study of Mus musculus with 2 samples.

Results

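The regions described here are internal alternative promoters: accessible sites that lie at annotated transcription start sites inside protein-coding genes, downstream of the gene's own first start. They were found by DNase-seq, in which nuclei are lightly cut with DNase I so that cuts gather where DNA is open. A region qualified when a peak was present in both libraries on chromosomes 1 to 19, when its centre lay within 500 bp of the start of a basic protein-coding transcript of GENCODE M21 more than 5 kb downstream of that gene's outermost 5′ end, and when the centre lay more than 1 kb from the 5′ end of any other gene. By this rule 1321 of 78595 shared peaks (1.68%) were internal promoters. They belonged to 983 genes. The rule used position and the presence of a peak, and set no limit on signal, footprints or sequence as such. They were not wholly free of it, since a peak called in both libraries already needs signal. Values from 1 library alone, given at the end, were lower for signal, footprints and CpG content.

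Left cerebral cortex was taken from 2 females of B6CASTF1/J, the hybrid of the C57BL/6J and CAST/EiJ strains, at an age of 2 months. Each animal gave 1 library (replicate 1 and replicate 2), and there was no second group. The labels give both libraries the same donor entry but separate replicate and female numbers, and on that basis they were counted as separate animals. Any p-value below measures only the spread between these libraries, pooled over all pairs and not taken from a single pair. The deposited lists held 125311 peaks in replicate 1 and 116563 in replicate 2 on these chromosomes. Start sites of all 5 excitatory neuron markers examined carried a shared peak, as did 3 of 5 astrocyte, 2 of 4 oligodendrocyte, 1 of 5 microglia and 1 of 4 endothelial markers, and none of 5 hepatocyte or 4 muscle markers.

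A gene with several promoters can begin its transcripts at different places, so that the same locus yields messages with different first exons. Where the downstream start lies beyond the original start codon, the protein loses its N-terminal part or gains another one. Long neuronal genes are well known for this: Bdnf, for example, which encodes a neurotrophin, joins alternative first exons to a common coding exon.

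The following stretches show what such promoters look like at the level of bases. They come from 7 of the genes named below, chosen after their values were seen so as to cover the strongest sites, the largest ratios to the outermost promoter and neuronal genes. Each holds the 150 bases directly upstream of the internal start, outside every annotated exon, in GRCm38.p6 and written 5′ to 3′ on the strand of the gene. Capitals mark bases inside a footprint in both libraries, a footprint being a short protected stretch within open DNA.
Bicdl1, chr5:115652987-115653136, minus strand: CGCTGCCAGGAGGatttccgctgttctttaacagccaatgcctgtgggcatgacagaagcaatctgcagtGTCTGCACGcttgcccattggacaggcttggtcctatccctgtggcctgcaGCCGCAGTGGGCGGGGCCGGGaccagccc
Stag1, chr9:100643298-100643447, plus strand: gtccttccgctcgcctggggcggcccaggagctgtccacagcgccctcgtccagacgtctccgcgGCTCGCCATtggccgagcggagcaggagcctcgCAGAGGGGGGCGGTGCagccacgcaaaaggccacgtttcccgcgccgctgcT
Hif1a, chr12:73907754-73907903, plus strand: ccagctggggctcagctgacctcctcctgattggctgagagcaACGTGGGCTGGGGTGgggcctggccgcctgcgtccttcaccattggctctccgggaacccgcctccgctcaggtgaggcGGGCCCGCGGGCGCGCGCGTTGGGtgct
Elavl2, chr4:91376497-91376646, minus strand: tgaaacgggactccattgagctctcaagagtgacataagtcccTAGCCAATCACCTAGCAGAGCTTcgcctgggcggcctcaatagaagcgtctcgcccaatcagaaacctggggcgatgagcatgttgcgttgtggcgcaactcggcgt
Tpm1, chr9:67043963-67044112, minus strand: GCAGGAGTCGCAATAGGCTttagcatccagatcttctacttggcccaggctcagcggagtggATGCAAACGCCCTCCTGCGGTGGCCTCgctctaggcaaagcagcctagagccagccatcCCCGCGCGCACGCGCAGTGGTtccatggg
Sgk1, chr10:21994516-21994665, plus strand: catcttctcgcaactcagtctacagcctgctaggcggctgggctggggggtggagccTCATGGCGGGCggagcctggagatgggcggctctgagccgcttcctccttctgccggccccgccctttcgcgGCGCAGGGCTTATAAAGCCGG
Pde2a, chr7:101450370-101450519, plus strand: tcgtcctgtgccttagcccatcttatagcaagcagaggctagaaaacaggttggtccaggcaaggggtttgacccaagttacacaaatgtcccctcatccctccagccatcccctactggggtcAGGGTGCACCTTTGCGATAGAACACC

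Footprints of both libraries covered between 23 and 67 of the 150 bases, the fewest upstream of Elavl2 and the most upstream of Tpm1. In Bicdl1 the letters GGGCGG, the core bound by SP and KLF factors, lay 21 to 16 bases upstream of the start and wholly inside a shared footprint. In Stag1 the same letters lay 45 to 40 bases upstream, again inside a shared footprint. The Tpm1 stretch held a match to the NRF1 pattern, GCGC repeated after any 2 bases, 24 to 15 bases upstream within a footprint. Elavl2 held a CCAAT pentamer within a footprint of both libraries. Sgk1 carried TATAAA 11 to 6 bases upstream of its annotated start, inside a shared footprint, and the Pde2a stretch held none of the 15 patterns searched. The matches just given were the only ones wholly inside shared footprints, and most matches in these stretches were not. Those left out were GGGCGG in Stag1, Elavl2 and Sgk1, CCAAT in Bicdl1, Stag1, Hif1a and Elavl2, and CAGCTG in Hif1a. A match is a description of letters and says nothing about which factor was bound.

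Internal promoters were intermediate in signal between outermost promoters and open sites elsewhere in introns. Signal is the height of the cut density at the peak, normalized to read depth. Their median signal was 1.39 in replicate 1 and 1.34 in replicate 2, or 1.36 ± 0.04 (SD, n = 2). Outermost promoters were the strongest shared peak reaching within 500 bp of each protein-coding gene's 5′ end, 11371 peaks in all. They had a median of 2.74 and 2.97, or 2.86 ± 0.16. Internal promoters kept every qualifying peak, weaker flanking ones included. Unlike outermost promoters, they also had to lie away from other genes' 5′ ends. Internal and outermost promoters were thus not chosen alike. The 22861 intronic sites more than 1 kb from any start had 0.669 and 0.701, and all shared peaks 0.785 and 0.816. The order of the sets was thus the same in both libraries, and the gap between each pair of sets exceeded the difference between libraries. The middle 50% of internal promoters nevertheless reached from 0.814 to 2.52 in replicate 1, so many overlapped either set. In bulk tissue a low signal from fewer open cells and a low signal in every cell cannot be told apart.

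**Figure D1:**
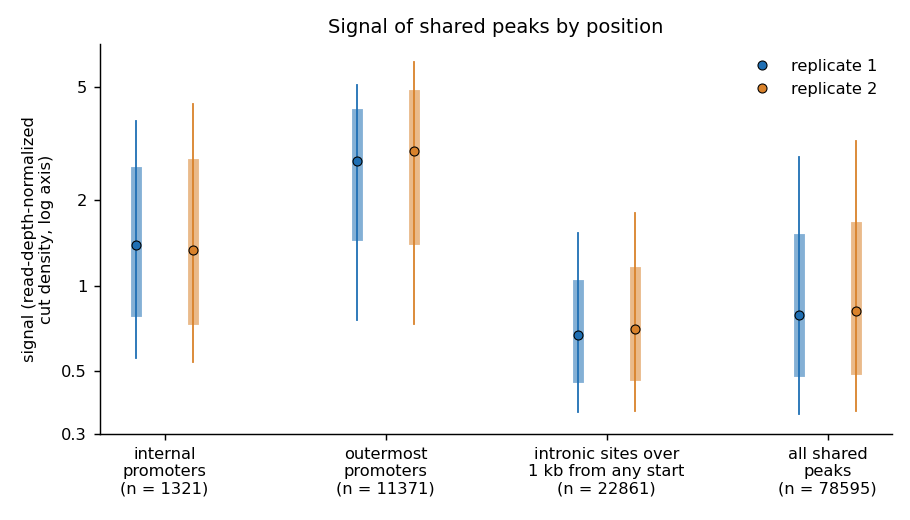
Signal (log axis) of internal promoters and of the 3 sets they were set beside, in each library. Points are medians, thick bars the middle 50% and thin lines the 10th to 90th percentiles over peaks; internal promoters had medians of 1.39 and 1.34, against 2.74 and 2.97 for outermost promoters.

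The stricter peak list and the number of footprints also placed internal promoters between outermost promoters and intronic sites, and peak width did not. On average 85.6% ± 1.1 of internal promoters were also in the authors' smaller, stricter peak list, against 95.2% of outermost promoters, 60.9% of intronic sites and 70.0% of all shared peaks. Footprints were called in 93.7% of internal promoters in each library, and in both libraries for 89.8%, where 83.5% of all shared peaks had them in both. An internal promoter held 4.49 ± 0.39 footprints on average, an outermost promoter 5.79 and an intronic site 2.51. Footprint calls depend on the number of cuts, which the signal also measures, so these are not separate lines of evidence. The median peak width was 340 bp at internal promoters, wider than the 320 bp at outermost promoters and the 240 bp at intronic sites.

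The open stretch was centred on the annotated start and extended further downstream than upstream. In the 50 bases just upstream of internal starts, 88.4% of positions were listed in the authors' table of significant cut rates. In the bin from 950 to 999 bp downstream the value was 21.0%, and in the matching bin, 1 kb upstream, 13.5%. Footprints covered 16.4% of bases in the 50 bp directly upstream and 12.9% in the 50 bp directly downstream, and 0.962% in the bin 1 kb upstream. At outermost starts the same 50 bp upstream bin had 92.5% listed and 25.1% in footprints. The centring on the start follows in part from the rule, which required a peak centre within 500 bp; 674 of 1321 centres (51.0%) lay within 100 bp. The side was not set by the rule, and centres lay upstream in 698 and downstream in 620.

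**Figure D2:**
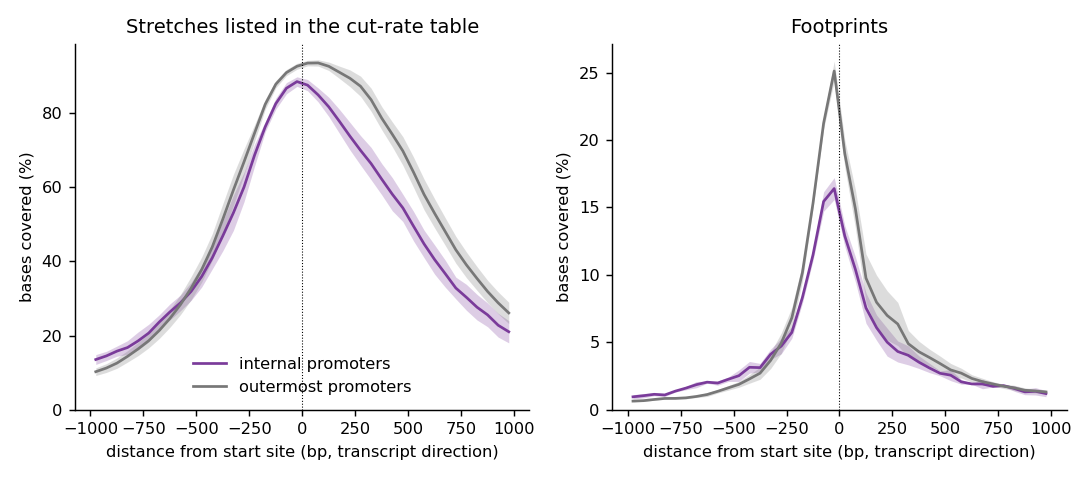
Percent of bases listed in the cut-rate tables (left) and inside footprints (right) in 50 bp bins around the start, in the direction of transcription, for 1321 internal and 12513 outermost promoter assignments. Lines are means of both libraries and bands span the libraries; internal starts peak at 88.4% listed and 16.4% in footprints, just upstream of the start.

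Most internal promoters had the base composition of CpG-rich promoters, but a sizeable minority did not. The CpG ratio, the number of CG pairs over the number expected from base content, had a median of 0.641 in the 300 bp around internal promoter centres. It was 0.830 at outermost promoters, 0.250 at intronic sites and 0.338 over all shared peaks. A ratio of 0.6 or more was found at 53.8% of internal promoters, 83.7% of outermost promoters and 4.11% of intronic sites. Signal differed with this class. The 711 CpG-rich internal promoters had a median of 2.08 and 2.09 in replicates 1 and 2, the 412 with a ratio of 0.3 to 0.6 had 0.976 and 0.944, and the 198 below 0.3 had 0.780 and 0.869. Outermost promoters of the same classes had mean medians of 3.21, 1.28 and 0.796, and intronic sites 0.883, 0.702 and 0.668. Internal promoters below 0.3 were therefore close in signal to outermost promoters of that class, and the CpG-rich ones lay below theirs.

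Several short sequence patterns had shares at internal promoters between those at outermost promoters and intronic sites. The 15 patterns were searched on both strands in the same 300 bp. GGGCGG (SP/KLF) was in 53.5% of internal promoters, 69.7% of outermost promoters, 11.0% of intronic sites and 25.1% of all shared peaks. CCGGAAG, bound by ETS factors, was in 8.18% of internal, 17.7% of outermost and 2.00% of intronic peaks, and the NRF1 pattern in 8.48%, 15.2% and 0.595%. Other patterns were most frequent at intronic sites. CAGATG, an E-box bound by NEUROD factors, was in 16.7% of internal, 9.96% of outermost and 32.3% of intronic peaks, and TGANTCA (AP-1) in 8.48%, 3.35% and 16.8%. The CTCF core, CCA and AG and GGC each 2 bases apart, was in 4.39% of internal, 3.87% of outermost and 12.9% of intronic peaks.

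Base composition moved with these shares. Among CpG-rich peaks alone, GGGCGG was in 74.8% of internal and 75.6% of outermost promoters, so that difference was nearly absent, whereas the NRF1 pattern was in 14.6% of internal and 17.7% of outermost promoters and CCAAT in 25.7% and 33.7%. TGANTCA was in 18.2% of internal promoters with a CpG ratio below 0.3, in 11.7% of outermost promoters and in 17.4% of intronic sites of that class. Of the remaining patterns, CCAAT was in 27.9% of internal promoters, 34.2% of outermost promoters and 28.8% of intronic sites, so internal promoters did not lie between the other sets. Internal and outermost promoters held the E-box CAGCTG in 20.7% and 17.2%, TATAAA in 4.31% and 3.65%, and TGACGTCA (CRE) in 2.12% and 3.68%. GCGTGGGCG (EGR), which can overlap GGGCGG, was in 0.908% and 1.64%, and the YY1 consensus in 0.379% and 1.65%. The RFX consensus, the MEF2 consensus and the NFI palindrome, TTGGC and GCCAA 5 bases apart, occurred in 2, 1 and 0 internal promoters.

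What the internal starts are annotated to encode separated them into kinds. Of the 1321, 817 (61.9%) belonged to a transcript that the APPRIS annotation marks as a principal form of the gene. The APPRIS mark concerns the protein form and does not measure how often a start is used. These principal starts had a median signal of 1.62 and 1.55 in replicates 1 and 2, and the 504 other starts 1.16 and 1.13. Their median CpG ratio was 0.735, against 0.487 for the other starts. The start codon differed from that of every upstream coding transcript at 595 internal promoters (45.0%) and was shared with one at 407 (30.8%). At 317 no coding transcript of the gene with an annotated start codon began upstream, and for 2 the internal transcripts had none. Among starts that were not principal, 379 of 504 (75.2%) had another start codon, that is, a protein with a different N-terminus; among principal starts the number was 216 of 817 (26.4%). In 118 cases (8.93%) the start lay within an exon of a transcript that begins elsewhere.

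Distance from the outermost 5′ end went with lower signal. Internal promoters 5 to 10 kb downstream (n = 255) had a median of 1.95 ± 0.19, those at 10 to 50 kb (n = 546) 1.51 and 1.49 in replicates 1 and 2, those at 50 to 200 kb (n = 369) 1.13 ± 0.01, and those beyond 200 kb (n = 151) 0.984 ± 0.088 (SD, n = 2 libraries). The median CpG ratio was 0.737, 0.690, 0.547 and 0.518 in the same order. The part of base composition in this gradient was not tested. At the distance limit itself, the nearest members inside were Ift46 at 5002 bp with a signal of 2.92 and 3.57 and Pmvk at 5030 bp with 2.57 and 3.31. Just outside were Pef1 at 4998 bp with 8.12 and 9.95, and Spag6 at 4991 bp with 0.620 and 0.514.

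Every internal promoter was then set against its own gene's outermost promoter, where one was open. This was possible for 805 internal promoters in 598 genes. The outermost side was the strongest peak in its window, while every internal peak was kept, which by itself favours lower ratios. A moderated test (limma) was run on the log2 ratio of the signals in both libraries, over all 23503 pairs of an open site inside a gene and that gene's outermost promoter, with Benjamini-Hochberg adjustment at 0.05. The fit gave all pairs the same standard error, 0.224 on the log2 scale, because it pooled the spread fully across pairs. A call was therefore a fixed cutoff on the mean log2 ratio, whatever the pair's own spread between libraries. Of the 805 internal promoters, 427 (53.0%) were called lower than their outermost promoter, against 79.3% of all pairs. A further 204 (25.3%) were called higher, against 7.87% of all pairs, and 174 (21.6%) were not called. The median log2 ratio was -0.55 in replicate 1 and -0.58 in replicate 2, and over all pairs -1.61 and -1.55. The ratio had the same sign in both libraries for 92.8% of internal promoters.

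**Figure D3:**
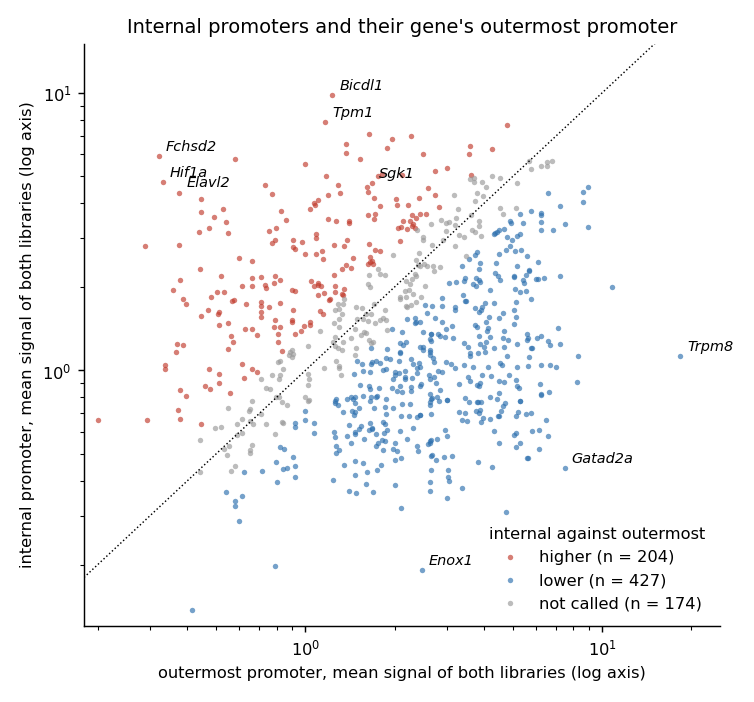
Mean signal of both libraries at 805 internal promoters (vertical, log axis) and at the outermost promoter of the same gene (horizontal, log axis), coloured by the call from limma. Points above the dotted line of equal signal are higher at the internal promoter; 204 were called higher and 427 lower.

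The balance turned with CpG content. Among the 394 paired internal promoters with a CpG ratio of 0.6 or more, 153 (38.8%) were called higher and 145 (36.8%) lower, with a median log2 ratio of 0.02 ± 0.06. At ratios of 0.3 to 0.6, 38 of 280 (13.6%) were called higher and 181 (64.6%) lower, with a median of -0.97 ± 0.05. Below 0.3, 13 of 131 (9.92%) were called higher and 101 (77.1%) lower, with a median of -1.37 ± 0.05. Principal starts were called higher in 134 of 448 cases (29.9%) and other starts in 70 of 357 (19.6%). With distance the share called higher changed little, from 27.6% at 5 to 10 kb to 21.3% beyond 200 kb.

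**Figure D4:**
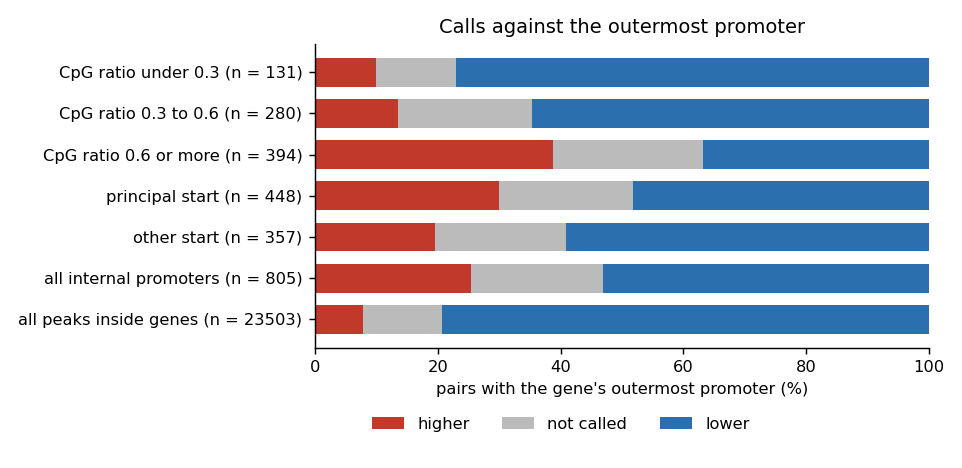
Percent of pairs in which the internal site was called higher than, not called against, or called lower than the gene's outermost promoter (limma, adjusted p under 0.05), by class of internal promoter, with all open sites inside genes at the bottom. CpG-rich internal promoters were called higher in 38.8% of pairs, against 7.87% of all pairs, which were not split by CpG ratio.

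The strongest internal promoter was that of Bicdl1, an adaptor that links vesicles to motor proteins in growing neurites. Its signal was 8.61 and 11.0 in replicates 1 and 2, against 1.26 and 1.20 at the outermost promoter 78.6 kb upstream. The log2 ratio was 2.98 ± 0.22 (SE), with an adjusted p of 1.9e-39 in limma. Tpm1, which encodes the actin-binding tropomyosin, had 7.52 and 8.14 at its internal start, against 1.09 and 1.23 at the outermost one (log2 ratio 2.75). Hdac4, a histone deacetylase, had 6.22 and 8.04 against 1.57 and 1.70, and the chaperone gene Hsp90aa1 had 6.06 and 7.90 against 1.90 and 2.62. Zfp638, which encodes a zinc finger protein, had 6.26 and 9.03 against 4.66 and 4.91, a log2 ratio of 0.65 with an adjusted p of 0.00445. In each of these 5 genes both libraries were higher at the internal start. For Hdac4, Hsp90aa1 and Zfp638 no coding transcript with an annotated start codon began upstream of the internal start.

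The largest ratios arose where the outermost promoter was barely open. Fchsd2, an F-BAR protein of endocytosis, had 5.39 and 6.42 at the internal promoter against 0.305 and 0.336 at the outermost one, a log2 ratio of 4.20. Hif1a, which encodes the oxygen-regulated transcription factor, had 4.57 and 4.98 against 0.339 and 0.322 (log2 ratio 3.85). Elavl2, a neuronal RNA-binding protein, had 3.89 and 4.85 against 0.455 and 0.298 (log2 ratio 3.56). A second internal start of Elavl2 was also called higher, at 2.91 and 2.74. Tmem219 (3.32), the mitochondrial ribosomal protein gene Mrps24 (3.28) and the proton pump subunit gene Atp6v1h (3.22) followed by log2 ratio. Rgs20, which encodes a regulator of G protein signalling, had a log2 ratio of 3.07, but its outermost promoter is the same peak as that of Atp6v1h. Fchsd2, Hif1a, Tmem219, Mrps24, Atp6v1h and Rgs20 start their annotated principal form at the internal promoter, and Elavl2 and Bicdl1 do not. For Fchsd2 and Mrps24 no coding transcript with an annotated start codon began upstream of the internal promoter.

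The lowest ratios came from 4 genes. Gatad2a, a subunit of the NuRD chromatin complex, had an internal peak at 0.460 and 0.427 against 6.33 and 8.62 at the outermost promoter, a log2 ratio of -4.06. A second peak at the same internal start of Gatad2a was at 2.80 and 3.94, so the low value is of a flanking peak. Trpm8, the cold-sensing channel, had 0.823 and 1.43 at its internal start and 15.3 and 21.3 at its outermost promoter. That outermost peak was the strongest of all 11371, and none of its 31-base words occurred elsewhere in the assembly. Outermost peaks were not kept away from other genes' 5′ ends, and whether this one also lies at another gene's 5′ end was not tested. Entpd1, an enzyme that breaks down extracellular ATP, had 0.354 and 0.264 against 3.99 and 5.51, and Enox1 had 0.174 and 0.206 against 2.47 and 2.46. These 3 had log2 ratios of -4.05, -3.94 and -3.70, all called lower.

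In 385 of the 983 genes (39.2%) no shared peak reached within 500 bp of the outermost 5′ end, leaving 516 internal promoters without a partner. An outermost peak was present in 56.2% of all 2944 eligible genes and in 60.1% of all protein-coding genes. Of the 516, 369 (71.5%) were principal starts, and of the 805 with a partner 448 (55.7%) were. The most open were at Glo1, which encodes the methylglyoxal-detoxifying glyoxalase, with 8.21 and 9.69, and at the cohesin subunit gene Stag1 with 7.71 and 9.65. Ndel1, a dynein regulator needed for neuronal migration had 6.34 and 10.1. Rbpj, the nuclear effector of Notch signalling, had 6.63 and 8.08, and Aktip had 5.87 and 8.50. Slc39a10, a zinc transporter, had 7.15 and 6.65, Zmynd8, a chromatin reader, 6.41 and 7.17, and Hint3 5.64 and 7.70. All 8 except Zmynd8 were principal starts. For Stag1, Aktip, Slc39a10 and Hint3 no coding transcript with an annotated start codon began upstream of the internal start. In Glo1, 13.5% of 31-base words occurred elsewhere in the assembly; for the other 7 the share was 0.

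Most genes had a single internal promoter peak: 728 had 1, 194 had 2, 45 had 3, 10 had 4 and 6 had 5. The 1321 peaks marked 1215 distinct starts, so some starts were flanked by more than 1 peak. Within the 255 genes with 2 or more, the strongest and weakest peak differed by a median of 2.03-fold, and by more than 2-fold in 130 genes. Tcf4, a helix-loop-helix transcription factor of neurons, had 5 peaks and no open outermost promoter. One of them, 250.1 kb downstream, had 3.61 and 3.49, and the other 4 ranged from 0.730 to 1.33 over both libraries. Gramd1b, which moves cholesterol out of the plasma membrane, had 5 peaks. Of these, 3 were called higher than the outermost promoter, whose signal was 0.896 and 0.744, and the strongest stood at 1.71 and 2.52. Another was called lower, at 0.610 and 0.447, and its neighbour at the same start, at 1.89 and 1.62, was among the 3.

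Pde4b, a cyclic AMP phosphodiesterase known for long and short forms, ran the other way. Its outermost promoter had 1.38 and 1.57, 4 of its 5 internal peaks were called lower, and the fifth, at 1.14 and 1.12, was not called (adjusted p = 0.103). The related Pde4d had 4 internal peaks, at 0.764 to 1.82, all called higher than an outermost promoter of 0.455 and 0.571. Psd3, an exchange factor for ARF GTPases, had 5 peaks between 0.307 and 1.85, and the septin gene Sept9 5 peaks between 0.688 and 1.74, both with no open outermost promoter. The strongest peak of Sept9 lay 66.6 kb downstream and that of Psd3 393.8 kb downstream. Osbpl1a, the sixth gene with 5 peaks, had 0.417 to 0.959 over both libraries, all called lower than its outermost promoter at 2.41 and 2.84. Pde4d and Osbpl1a were chosen after their values were seen.

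Genes of synapses and neuronal shape were looked at as lists, each against the 33.4% of eligible genes (983 of 2944) that had an internal promoter peak. In a list chosen for neuronal genes already known for several promoters, 13 of 14 eligible genes had one, and Mapt, the tau gene, did not. The choice of that list makes the high share no finding. Of eligible postsynaptic scaffold and adhesion genes 10 of 12 had an internal promoter, of ion channels and receptors 9 of 13, of cytoskeletal linkers 13 of 21, of transcription and chromatin factors 17 of 25, and of kinases, phosphatases and G protein regulators 10 of 16. The 2 postsynaptic genes without one were Dlgap2 and Dlgap4. All these shares lay above 33.4%, and no test was made of them, since the lists were drawn up with earlier results of these data known.

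Lists of other cell types were small. For astrocytes and oligodendrocytes 1 of 6 eligible genes had an internal promoter, namely Tcf7l2, a Wnt effector, with 0.557 and 0.490. For microglia and vessels none of 5 had one (Csf1r, Inpp5d, P2ry12, Pecam1 and Spi1), and none of 8 genes of other tissues did. Both eligible inhibitory neuron genes had one. Gad1, which makes the transmitter GABA, had 0.983 and 0.816 at its principal start and no open outermost promoter. No coding transcript of Gad1 with an annotated start codon began upstream of that start. Sox6, a factor of interneuron development, had 0.378 and 0.351, against 0.441 and 0.639 at the outermost promoter, and was called lower (adjusted p = 0.018). In the marker check, 1 to 3 start sites of each glial or vessel type were open, and the part of cell number in these low counts was not tested.

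Of the 19 pairs in the list of genes known for several promoters, 10 were called lower, 5 higher and 4 were not called. Over all internal promoters 53.0% were called lower and 25.3% higher, and over all pairs 79.3% and 7.87%. No list was tested against these shares. In that list, Nrxn2 and Nrxn3 encode presynaptic adhesion proteins. In Nrxn3 the start 1090 kb downstream had 1.91 and 1.87, against 2.10 and 2.53, and was not called (adjusted p = 0.217). The Nrxn3 start 230.5 kb downstream had 0.775 and 0.471 and was called lower (log2 ratio -1.93). In Nrxn2 the start 79.1 kb downstream carried peaks at 2.25 and 1.86 and at 1.11 and 0.936, against 3.19 and 4.13, and both were called lower. No test compared the genes with each other.

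Of 17 postsynaptic scaffold and adhesion pairs 12 were called lower, 2 higher and 3 were not called, with a median log2 ratio of -1.09. Among all paired internal promoters 53.0% were called lower and 25.3% higher, and among all pairs 79.3% and 7.87%. Both higher postsynaptic calls, in Iqsec1 and Ptprd, are among the values that follow. Dlg4, of the list of genes known for several promoters, which encodes the scaffold PSD-95, had no open outermost promoter and 2 internal peaks, at 1.87 and 2.10 and at 0.838 and 0.879. Iqsec1, an ARF exchange factor of the postsynaptic density, had 3.23 and 4.12 at the start 178.6 kb downstream, called higher than the outermost promoter at 2.46 and 2.41 (adjusted p = 0.0107). Its second internal start was called lower, at 0.775 and 0.610. Among receptor phosphatases that organise synapses, Ptprs had 3.58 and 4.26 against 6.49 and 7.94 and was called lower. Ptprd had 1.82 and 2.10 at its principal start, 1762 kb downstream, against 1.32 and 1.39, and was called higher (adjusted p = 0.0208). Its other internal peak, 1887 kb downstream, had 0.455 and 0.461 and was called lower (log2 ratio -1.56). Anks1b, a scaffold protein, had 3 internal peaks, of which the strongest, at 1.94 and 1.72, was not called against 2.19 and 2.19.

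Bdnf, Shank2, Homer1, Mef2c and Gnas were chosen after their values were seen, as well-known cortical or multi-promoter genes. In Bdnf the peak 18.9 kb downstream had 1.33 and 1.02, against 0.925 and 0.740 at the outermost promoter, and was called higher (log2 ratio 0.49, adjusted p = 0.0332). The Bdnf peaks on either side, at 0.843 and 0.696 and at 0.804 and 0.499, were not called. The scaffold gene Shank2 had 4 internal peaks and no open outermost promoter, the strongest at 1.84 and 1.75. Homer1, a further scaffold, had 1.67 and 1.55, and the transcription factor Mef2c 1.63 and 1.65, each from a single internal promoter without an open outermost one. Gnas, an imprinted gene that encodes a G protein subunit, had 3 internal peaks between 1.33 and 1.81, all called higher than the outermost promoter at 0.712 and 0.711.

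**Figure D5:**
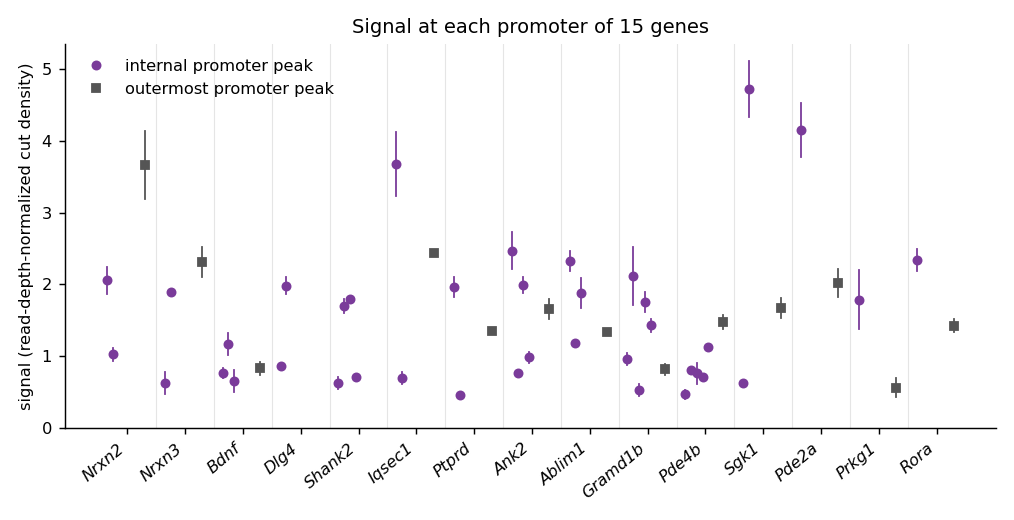
Signal at every internal promoter peak (circles, in order of distance from the gene's 5′ end) and at the outermost promoter peak where open (squares) of 15 genes; points are means and lines join both libraries. Sgk1 and Pde2a have their highest signal inside the gene, while in Nrxn2 and Pde4b the outermost promoter is the higher one, and Dlg4 and Shank2 have no open outermost promoter.

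Of 9 ion channel and receptor pairs 7 were called lower, 1 higher and 1 was not called. The shares called lower and higher were 53.0% and 25.3% over paired internal promoters, and 79.3% and 7.87% over all pairs. The calcium channel gene Cacna1c had 3 internal peaks without an open outermost promoter, the strongest at 1.33 and 1.60, and the potassium channel gene Kcnma1 had 1.92 and 1.03. Cacna1d, a further calcium channel, had 1.23 and 0.970. The sodium channel gene Scn2a had 1.23 and 1.48 at a start 48.0 kb downstream, called higher than 0.727 and 1.12 at the outermost promoter (adjusted p = 0.0114), and 2 weaker peaks that were called lower. One of these, at 0.809 and 0.490, stood above the outermost promoter in replicate 1 and below it in replicate 2, so its call rests on the pooled spread.

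Of 25 cytoskeletal linker pairs 16 were called lower, 7 higher and 2 were not called. Paired internal promoters as a whole were called lower in 53.0% and higher in 25.3%, and all pairs in 79.3% and 7.87%. The ankyrin gene Ank2 had 4 internal peaks. The one at its principal start had 2.21 and 2.73 and was called higher than the outermost promoter at 1.79 and 1.52 (limma, adjusted p = 0.0125). No coding transcript of Ank2 with an annotated start codon began upstream of that start. Another internal peak, 337.0 kb downstream, had 1.88 and 2.11 and was not called, and the remaining 2 were called lower. Ablim1, an actin-binding protein, had 2 internal peaks called higher, at 2.47 and 2.18 and at 1.67 and 2.09, against 1.34 and 1.33. Map4, a microtubule-associated protein, had 2.24 and 2.67 against 5.43 and 6.76 and was called lower.

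Of 19 pairs in kinases, phosphatases and G protein regulators, 10 were called lower, 7 higher and 2 were not called. Their median log2 ratio was -0.88. All paired internal promoters had 53.0% called lower and 25.3% called higher, and all pairs 79.3% and 7.87%. Sgk1, a kinase induced by glucocorticoids, had 4.33 and 5.11 at a principal start 112.5 kb downstream, against 1.82 and 1.53, a log2 ratio of 1.25 in replicate 1 and 1.74 in replicate 2 with an adjusted p of 4.7e-11. A second internal peak of Sgk1, at 0.630 and 0.615, was called lower (log2 ratio -1.42). Pde2a, a phosphodiesterase, had 3.77 and 4.53 against 1.83 and 2.22, with another start codon than the upstream form. The cyclic GMP-dependent kinase gene Prkg1 had 2.19 and 1.37 against 0.698 and 0.432. Pde2a and Prkg1 were called higher. The doublecortin-like kinase gene Dclk1 had 2.73 and 3.17 against 2.64 and 3.20, and was not called (log2 ratio 0.02 ± 0.22 (SE), adjusted p = 0.944).

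Of 20 pairs in transcription and chromatin factors, 11 were called lower, 6 higher and 3 were not called. For comparison, 53.0% of paired internal promoters were called lower and 25.3% higher, and 79.3% and 7.87% of all pairs. Nr3c1, the glucocorticoid receptor, had 4 internal peaks between 1.00 and 2.51, all called higher than an outermost promoter of 0.688 and 0.634. The call of the weakest was lost when the mean of a library's peaks in a merged peak was used in place of the highest (adjusted p = 0.0956). Rora, a nuclear receptor, had 2.50 and 2.18 at its principal start 635.9 kb downstream, against 1.52 and 1.34, and was called higher. Camta1, a calmodulin-binding transcription activator, had 2.76 and 3.79 against 7.19 and 10.7 and was called lower.

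The libraries resembled each other at these sites about as much as elsewhere. The signal was within 2-fold in 1319 of 1321 internal promoters (99.8%), against 99.05% of all shared peaks and 99.91% of outermost promoters. It was higher in replicate 1 in 595 internal promoters. For 1199 internal promoters (90.8%) no 31-base word of the peak occurred elsewhere in the assembly, and for 6 more than 50% did. Of the paired outermost peaks 2 of 805 exceeded that share.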

How the data were processed

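Per the labels, the authors aligned DNase-seq reads to mm10; the sources used here do not give the aligner, the peak caller or the footprint caller. The authors deposited 2 peak lists per library, called on that library alone, with a signal column (read from its values as cut density scaled to read depth), footprints with their FDR as a fraction (0.01 throughout), and cut-rate tables with q-values (adjusted p-values) below 0.05. Reads from CAST/EiJ alleles may align less often to the reference. Counts of reads behind each peak are unknown here.

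Peaks of the larger lists were merged at 1 bp overlap. The signal of a merged peak was the highest of a library's peaks in it. Sequence came from GRCm38.p6, the same build as mm10, read with pysam 0.24.0, and genes from GENCODE M21. Pairs were fitted with limma 3.58.1 in R 4.3.3 (intercept only, 2 libraries), and the method was checked on simulated data. The simulated pairs were independent and each had its own spread. In the real fit the spread was pooled fully and many pairs shared an outermost peak, so the check did not cover that setting. Other values were computed with pandas 2.3.3. Repeated sequence was measured by 31-base words in chromosomes 1 to 19, X and Y. Members, the 10 gene lists, the markers and the 15 motifs were chosen with earlier results of these data known. Named are the 10 strongest internal promoters, the 8 highest and 4 lowest called ratios, 5 of the 6 genes tied for most peaks (those with the strongest peak), the 8 strongest without an outermost peak, and up to 4 genes per list by signal; a few genes so named are not reported here. Alternatives changed the peak list, overlap, distances, transcript set, signal summary, variance prior, centring, pseudocount, sequence window and the library used. Alleles and chromosomes X and Y were not analysed here.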

Additional observations from a re-analysis of the deposited data

How the results depend on the processing

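No comparison between groups was possible because the libraries form 1 group. Calls against the outermost promoter could not be given from a single library, which leaves no residual degrees of freedom. Of 65 named pairs under 12 alternatives, 728 values kept their direction and side of the threshold and none reversed. The Nr3c1 peak at the start 39487232 was no longer called with the mean of a library's peaks (log2 ratio 0.40, adjusted p = 0.0956 in limma). Several alternatives, such as centring and the sequence window, cannot change the ratio of a pair. Their share of this stability was fixed in advance. The smaller peak list and the 50% overlap of peaks were not run on named pairs. Pairs absent under an alternative were not counted. The counts called lower and higher moved by over 1.5 times only with the upper 50% of shared peaks, to 252 and 123 of 510. Of the summary values under all alternatives, 54 moved by more than the spread between libraries, or by over 1.5 times for counts, and 65 did not. The footprint percent was equal in both libraries, so any change in it counted as moved. For the percent of genes and the CpG ratio the spread was that between the values from 1 library alone. These were 36.0 and 36.1, and 0.591 and 0.593, so small changes counted there too. The values below are in the order smaller peak list, 10 kb limit, 250 bp window, 1 kb window, all protein-coding transcripts, upper 50% of peaks. The percent of eligible genes with an internal promoter was 28.8, 37.5, 30.2, 34.5, 24.5 and 26.9, and the median internal signal 1.68, 1.27, 1.49, 1.18, 1.21 and 1.83. The median log2 ratio to the outermost promoter was -0.46, -0.61, -0.46, -0.71, -0.76 and -0.43. The percent with a footprint was 95.3, 93.7, 95.9, 91.2, 93.4 and 97.3, and the median CpG ratio 0.707, 0.614, 0.649, 0.579, 0.576 and 0.729. With 50% overlap of peaks, the percent of genes was 33.1, the log2 ratio -0.58, the percent with a footprint 93.9 and the CpG ratio 0.639. Measuring from the start site to other genes gave 34.0% of genes and 93.8% with a footprint. The smaller list and the upper 50% raised the median outermost signal to 3.06 and 3.17. A 1 kb window at the outermost end gave a median log2 ratio of -0.61, a pseudocount of 0.1 one of -0.53, and a 150 bp sequence window a CpG ratio of 0.660. From 1 library alone, the percent of genes was 36.0 to 36.1, the internal signal 1.12 to 1.16, the outermost signal 2.65 to 2.88, the log2 ratio -0.76 to -0.69, the percent with a footprint 86.4 to 87.3 and the CpG ratio 0.591 to 0.593; these values hold peaks that the other library lacks. Depth limits footprints and weak peaks, and the number of cuts behind each value is unknown.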
